A study of Drosophila melanogaster with 2 samples.

Results

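The Cpr genes encode cuticular proteins of Drosophila melanogaster, and 70 of them were examined here among 13945 protein-coding genes on the chromosome arms. They were taken by name: a protein-coding gene whose symbol in the Ensembl gene models starts with Cpr followed by a digit, the digits giving the cytological band. The measurement was ChIP-seq of Jra, the fly Jun protein and a subunit of the AP-1 transcription factor. Both libraries came from entire larvae at the wandering stage of the third instar, with the sexes mixed, of a Jra-GFP strain whose transgene stably supplies Jra tagged with GFP at the C terminus. Jra was precipitated through an antibody against GFP from sonicated chromatin. The 2 biological replicates, labelled 1 and 3, form the only group, and control libraries were not analysed here. Cpr genes are set beside other genes below, as a description without a test.

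Cuticular proteins of this family carry the Rebers and Riddiford (R&R) domain, which binds chitin, and together with chitin they build the exoskeleton. Epidermal cells secrete them, as do the cells that line the tracheae, foregut and hindgut, in waves timed by ecdysone around each moult. Most Cpr genes are short and lie in runs of related neighbours. In flies, AP-1 acts in the epidermis in closure movements and wound repair. Whole larvae were used, so each value averages over all tissues. Binding in few cells and weak binding in many cannot be told apart.

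Jra peaks were rare at Cpr genes. The authors' shortest list was cut by the irreproducible discovery rate (IDR), which compares the ranks of peaks between replicates. It had 3803 peaks on the arms, with signals of 70.6 to 1184 in the authors' own units. These were also the 3803 strongest of the authors' longer pooled list, and a listed peak need not rank alike in both replicates. A summit lay in the gene body or within 2 kb at 3 of 70 Cpr genes (4.29%, Wilson 95% interval 1.47 to 11.9), against 4226 of 13875 other protein-coding genes (30.5%). The intervals given here cover counting over genes, and neighbouring Cpr genes share parts of their windows. Cpr genes are short, with a median of 1094 bp against 2171 bp for other genes. Weighted to the lengths of the Cpr genes in 10 bins, the share of other genes was 24.1%. In the 4 bins of shortest genes, with lengths up to 1717 bp, 0 of 48 Cpr genes had a summit, against 12.95%, 19.2%, 24.9% and 25.9% of other genes.

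No IDR summit lay inside a Cpr gene or at its promoter. In the gene body the count was 0 of 70 (Wilson upper bound 5.20%), against 10.9% of all other genes and 5.19% of those weighted to Cpr length, which the interval includes. Within 1000 bp of a transcription start site (TSS) it was again 0 of 70, against 20.5% of all other genes and 15.7% after weighting. By the gene with the nearest TSS within the window, 0 of 70 Cpr genes held a summit, against 11.7% of other genes after weighting.

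**Figure D1:**
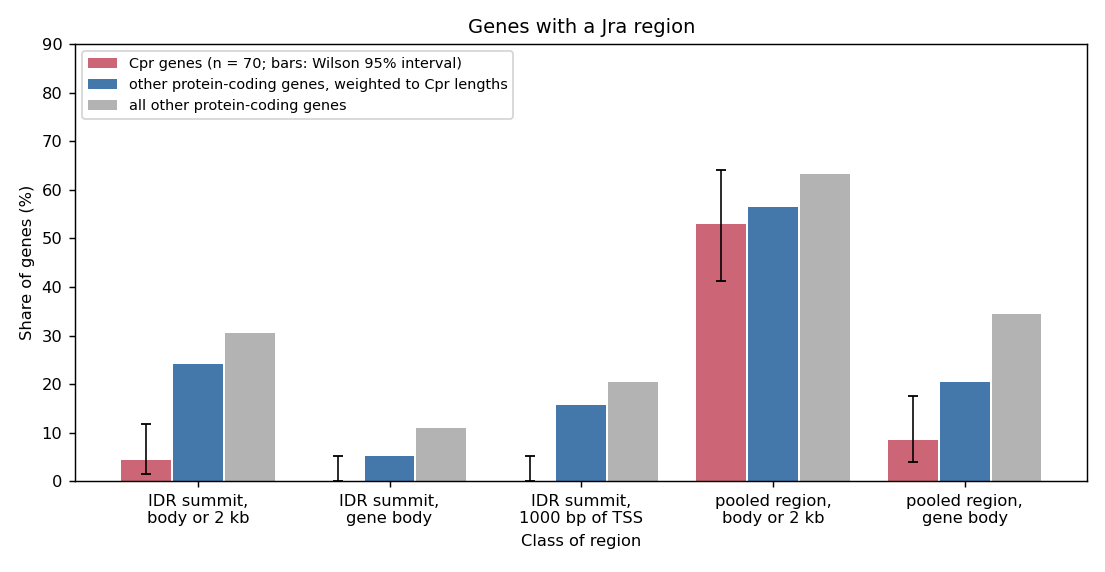
Share of genes (%) with a Jra region, for 5 classes of region, in the 70 Cpr genes (left bars, with Wilson 95% intervals), in other protein-coding genes weighted to Cpr lengths (middle bars) and in all other protein-coding genes (right bars). Cpr genes had 4.29% against 24.1% and 30.5% for IDR summits in the body or within 2 kb, and 52.9% against 56.4% and 63.3% for regions of any rank in the pooled list. The pooled list includes background regions.

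Each of the 3 summits lay nearer to the TSS of another gene than to that of the Cpr gene. The strongest, in the window of Cpr31A, had a pooled signal of 199 (rank 486 of 3803) at chr2L:10057359-10057533 of genome build dm6. It lay in an intron of Pen, 535 bp downstream of the Pen TSS, and 3222 bp from the TSS of Cpr31A. Pen encodes an importin alpha, a nuclear import receptor. In the window of Cpr66Cb, a peak of signal 74.6 (rank 3466, chr3L:8338841-8339280) had its summit 10 bp downstream of the TSS of Pex2, a gene of peroxisome assembly, and 2389 bp from the Cpr66Cb TSS. In the window of Cpr49Ac, a peak of signal 71.5 (rank 3723, chr2R:12384825-12385264) lay between genes, 1153 bp from the TSS of CG8501 and 1621 bp upstream of that of Cpr49Ac. The peaks at Cpr66Cb and Cpr49Ac were among the weakest of the IDR list, whose median signal was 104.

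Replicates differed in how high they placed these peaks. The region at Cpr31A had a signal of 118 in replicate 1 (rank 456) and 80.4 in replicate 3 (rank 658), so it was high in both libraries. The region near Cpr66Cb had 47.5 in replicate 1 (rank 2993) and 23.8 in replicate 3 (rank 7686). The region near Cpr49Ac had 30.3 in replicate 1 (rank 6100) and 42.4 in replicate 3 (rank 2697). Signal scales differ between the lists, and ranks rather than signals are comparable. Among the 3803 top regions of each replicate alone, 3 Cpr genes had a summit in replicate 1 and 2 in replicate 3, against 24.7% and 24.0% of other genes weighted to Cpr length.

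Sequences under 4 regions are shown because each stands for what was found at its locus: the Pen intron near Cpr31A, the Pex2 start near Cpr66Cb, and intergenic regions at Cpr97Eb and Cpr72Ea, which did not reach the IDR list. The IDR peak near Cpr49Ac is not printed. Each is the forward strand of dm6 centred on the deposited summit. The windows are 101 bases long, except that at Cpr66Cb, which is 29. None held the AP-1 site (TGACTCA or TGAGTCA) or the DRE, TATCGATA, the promoter element of broadly expressed fly genes, so no letters are in capitals.
Cpr31A window, chr2L:10057385-10057485: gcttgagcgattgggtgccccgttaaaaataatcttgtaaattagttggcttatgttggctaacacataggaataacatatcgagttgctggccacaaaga
Cpr66Cb window, chr3L:8339047-8339075: aactttctttacaattgccatctctaatt
Cpr97Eb window, chr3R:27092417-27092517: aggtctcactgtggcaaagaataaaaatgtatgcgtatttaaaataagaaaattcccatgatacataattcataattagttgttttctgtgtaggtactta
Cpr72Ea window, chr3L:16361303-16361403: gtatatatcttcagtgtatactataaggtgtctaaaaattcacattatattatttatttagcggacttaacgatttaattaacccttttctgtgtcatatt

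Regions of any rank were found at a share of Cpr genes close to that of other genes of like length. The authors' pooled list, made from both replicates, runs to 29970 regions on the arms, down to a signal of 15.96. Like the list of each replicate, it holds peaks and background as the input for IDR. A region of any rank is therefore not by itself a sign of Jra binding. A summit of this longer list lay in the body or within 2 kb at 37 of 70 Cpr genes (52.9%, Wilson 95% interval 41.3 to 64.1), against 63.3% of all other genes and 56.4% of those weighted to Cpr length. The strongest region of a Cpr gene was low. Its signal ranged from 17.4 to 199 over the 37 genes, with a median of 28.3, against a median of 67.5 for all other genes with a region and 58.6 after weighting for length. The median of the Cpr genes stood near that of the pooled list as a whole, 27.3. Inside the gene body the longer list also had fewer summits at Cpr genes, at 6 of 70 (8.57%) against 20.4% of other genes after weighting.

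Walking down the pooled list, Cpr genes were reached late. The 1000 strongest regions reached 1 Cpr gene (1.43%) and 9.12% of other genes after weighting. The 10000 strongest reached 11 (15.7%) against 37.7%. The 20000 strongest reached 29 (41.4%) against 48.9%, and the 25000 strongest reached 36 (51.4%) against 52.9%. For the body and 2 kb around it, the gap between Cpr genes and other genes of like length lay in the upper part of the list and was small at its end. At promoters it was not small even there: over the whole pooled list a summit lay within 1000 bp of the TSS at 16 of 70 Cpr genes (22.9%, Wilson 95% interval 14.6 to 34.0), against 41.8% of other genes after weighting.

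**Figure D2:**
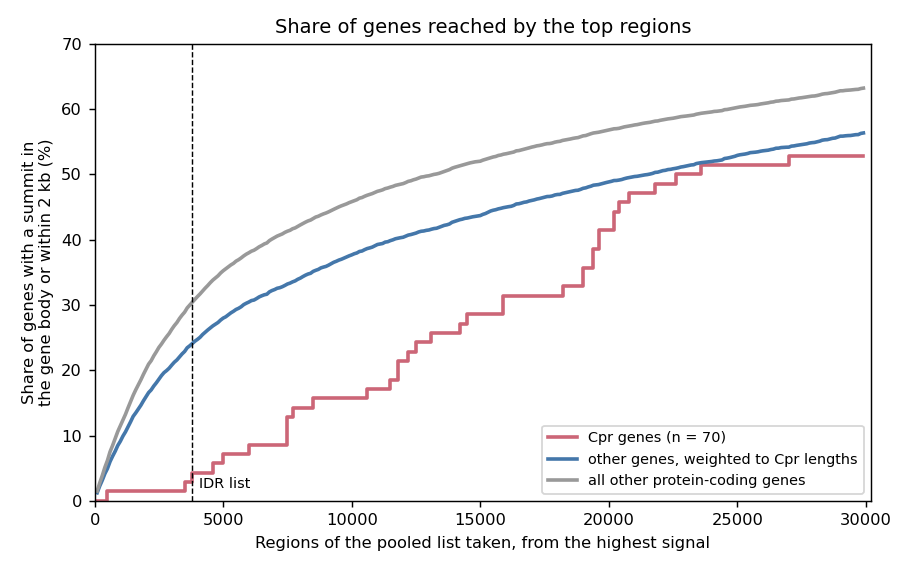
Share of genes (%) with a summit in the gene body or within 2 kb, as more regions of the pooled list are taken from the highest signal (x axis), for the 70 Cpr genes, for other genes weighted to Cpr lengths and for all other protein-coding genes. At the IDR list (dashed line, 3803 regions) the shares were 4.29%, 24.1% and 30.5%, and the Cpr curve came closest to the weighted curve at 23600 regions (51.4% against 51.8%).

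Past the 3 genes with an IDR summit, the highest pooled signals were at Cpr97Eb (63.3), Cpr49Ad (59.7), Cpr72Ea (53.0), Cpr72Eb and Cpr72Ec, which share a region of 45.6. At Cpr97Eb the summit lay 1337 bp upstream of its TSS and 676 bp upstream of that of CG14258, which was nearer. Its signal was 41.02 in replicate 1 (rank 3805) and 17.0 in replicate 3 (rank 12595), which places it just outside the top 3803 of replicate 1. The region of Cpr49Ad lay in the 3′ UTR of its neighbour Cpr49Ac, with 33.9 in replicate 1 and 23.8 in replicate 3. At Cpr72Ea the summit was 1250 bp upstream of the TSS, with 26.3 in replicate 1 and 29.8 in replicate 3. The region shared along the Cpr72E run lay 463 bp upstream of the Cpr72Eb TSS, with 25.9 in replicate 1 and 17.4 in replicate 3. None of these stood among the 3803 top regions of either replicate.

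**Figure D3:**
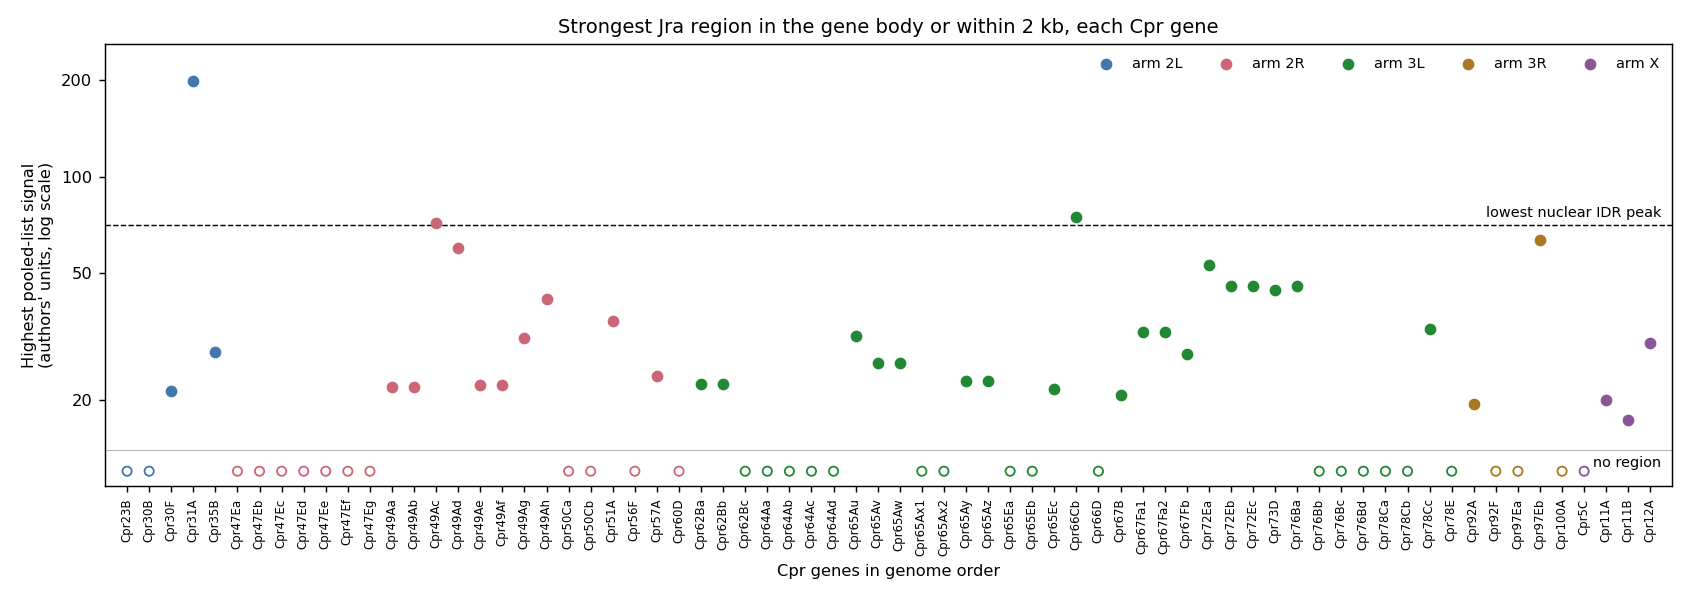
Highest signal in the pooled list (log axis, authors' units) in the gene body or within 2 kb of each of the 70 Cpr genes, in genome order and coloured by arm; open circles mark the 33 genes with no region. Only Cpr31A (199), Cpr66Cb (74.6) and Cpr49Ac (71.5) lay at or above the lowest nuclear IDR signal (dashed line, 70.6).

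Runs of neighbouring genes differed among themselves. By the band in their symbols, 45 of the 70 genes fell into 10 runs of 3 or more. The 7 genes of the Cpr47E run, within 26695 bp, had no pooled-list region, and only Cpr47Ea had one in a replicate list (15.5 in replicate 1). The 4 genes of the Cpr64A run had no region in any list. In contrast, all 8 genes of the Cpr49A run had a pooled region, with signals of 22.0 to 71.5. All 3 genes of the Cpr67F run (27.9 to 32.6) and all 3 of the Cpr72E run (45.6 to 53.0) had one too. The remaining runs were mixed, with 5 of 7 genes in the Cpr65A run, 2 of 3 in Cpr62B, 1 of 4 in Cpr76B, and 1 of 3 in each of Cpr65E and Cpr78C. Genes of a run share regions, since 13 of the 64 regions in Cpr windows lay in the windows of more than 1 Cpr gene.

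Cpr49Ac had 9 regions of the pooled list in its window. One, of signal 51.1, had its summit 11 bp upstream of the Cpr49Ac TSS. It had 43.3 in replicate 1 (rank 3499), and no region overlapped it in the replicate 3 list. This was the 1 Cpr promoter with a summit within 1000 bp among the top 3803 of replicate 1, and there was none in replicate 3. Others lay in an intron of Cpr49Ac (46.2, with 24.2 in replicate 1 and 29.1 in replicate 3) and in its 3′ UTR (59.7). The 9 regions were not all separate. The IDR peak of 71.5 overlapped a region of 26.1, and the region of 51.1 overlapped one of 18.2.

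Across the family, 31 genes had a region in both replicate lists and 20 in neither. There were 13 with a region only in the list of replicate 1 and 6 only in that of replicate 3. In all, 44 Cpr genes (62.9%) had a region in replicate 1, against 60.9% of other genes after weighting for length, and 37 (52.9%) in replicate 3, against 58.1%. There were 19 genes with no region in any of the 3 longer lists: Cpr5C, Cpr30B, Cpr47Eb to Cpr47Eg, Cpr56F, Cpr60D, Cpr62Bc, the 4 genes Cpr64Aa to Cpr64Ad, Cpr76Bb to Cpr76Bd and Cpr92F. The median of the strongest signal was 15.4 in replicate 1 over 44 genes and 14.2 in replicate 3 over 37 genes. For other genes of like length it was 32.0 in replicate 1 and 29.4 in replicate 3. Of the 64 pooled regions in Cpr windows, 36 overlapped a region of both replicate lists, and over these the signals had a Spearman rho of 0.62. The rho is a description only, since the pooled list was made from the same libraries. Some of the 64 regions also overlap each other and take the same replicate regions. They are thus not all separate, and the rho counts some replicate values more than once. Overlap between the replicate lists was not counted at other genes or over all pooled regions, so these counts have no comparison.

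**Figure D4:**
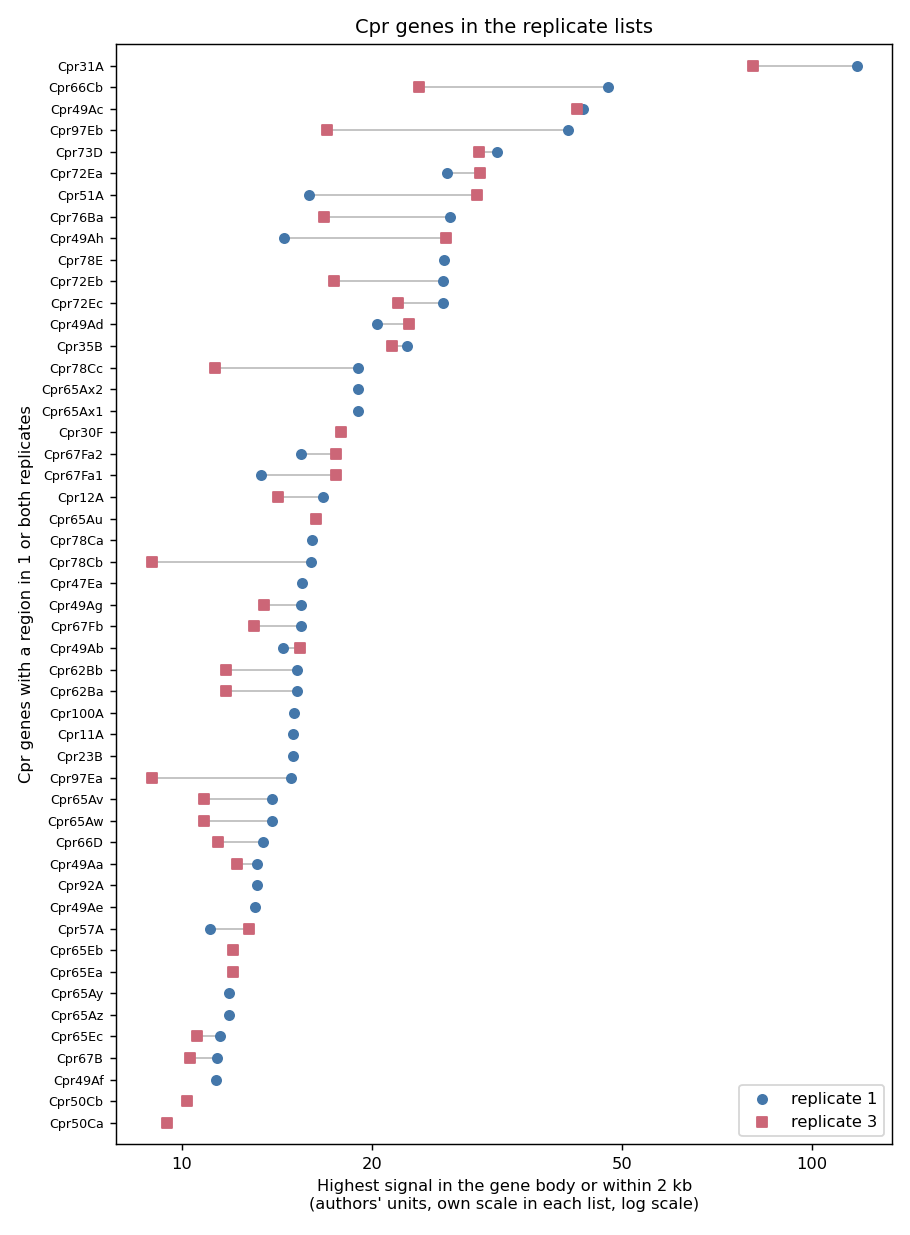
Highest signal in the gene body or within 2 kb in replicate 1 (circles) and replicate 3 (squares), on a log axis in authors' units, for the 50 Cpr genes with a region in 1 or both lists, a grey line joining the values of 1 gene. Cpr31A (118 and 80.4) stood above the rest, and most of the 31 genes with both values lay between 10 and 30 in each list.

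The 64 regions lay mostly between genes. There were 36 intergenic summits, 12 in introns, 10 in 3′ UTRs, 4 in 5′ UTRs and 2 in coding exons. The nearest TSS was that of a Cpr gene for 41 and of another gene for 23. The highest signal among the 41 was 59.7, below the IDR list, and their median was 23.8, against 28.6 for the other 23. Within 250 bp of a Cpr TSS there were 7 summits. These positions were not counted for all pooled regions or in the windows of other genes, so they have no comparison. The windows reach 2 kb past each end of genes with a median length of 1094 bp. Much of a typical window thus lies outside its Cpr gene.

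Beyond 2 kb, a Cpr gene had the nearest TSS to 2 further IDR summits. One lay 13881 bp downstream of the Cpr92A TSS, in an intron of Dys, the fly dystrophin gene (signal 91.2, with 65.0 in replicate 1 and 29.6 in replicate 3). The other lay 3106 bp upstream of Cpr51A, between genes (84.3, with 42.7 in replicate 1 and 47.4 in replicate 3). By nearest TSS at any distance, 2 of 70 Cpr genes held an IDR summit (2.86%), against 13.6% of other genes after weighting.

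**Figure D5:**
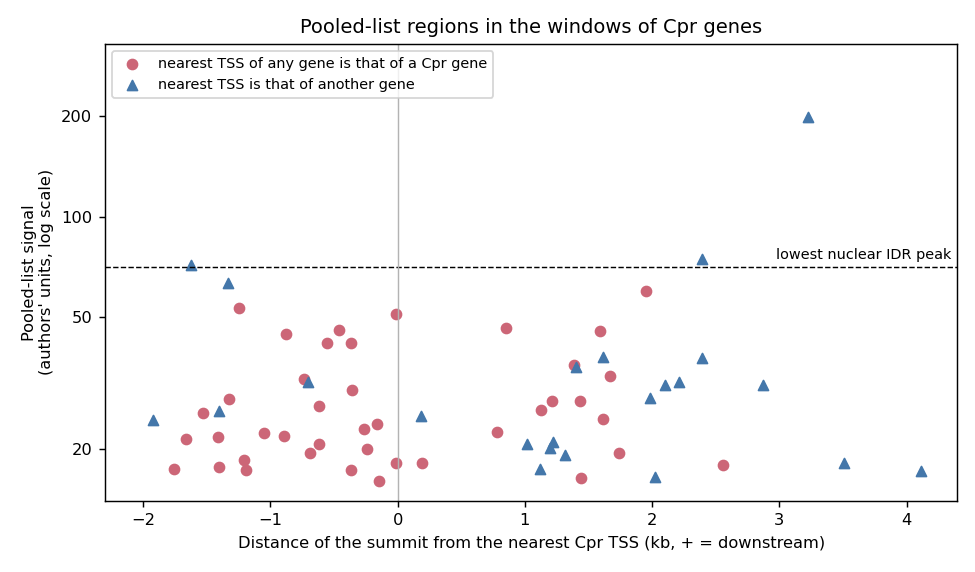
Signal (log axis, authors' units) of the 64 pooled-list regions in Cpr windows against the distance of the summit from the nearest Cpr TSS (kb, positive downstream); circles have a Cpr TSS as the nearest of all genes and triangles that of another gene. The 3 regions above the lowest nuclear IDR signal (dashed line) are all triangles.

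Cpr genes had a neighbouring start site about as often as other genes. The TSS of any other gene lay in the window of 52 of 70 Cpr genes (74.3%), against 76.9% of other genes and 76.4% after weighting for length. Among genes with such a neighbour, an IDR summit lay at 3 of 52 Cpr genes (5.77%), against 28.3% of other genes after weighting. Among genes without one, it lay at 0 of 18, against 9.91%. Weighting on length and on the presence of any neighbouring TSS together gave 23.6% for other genes, against 4.29% for Cpr genes. The TSS of a gene outside the family lay in the window of 34 of 70 Cpr genes (48.6%), so for 18 the only neighbours were other Cpr genes. Of these 34, 2 had an IDR summit (5.88%), against 28.3% of other genes of that class after weighting. Of the other 36, 1 had one (2.78%), against 9.09%. For other genes, neighbours of their own family were counted here. What part the kind of neighbour has in the low share was not tested.

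AP-1 sites were about as dense around Cpr genes as on the arms, and none lay in a pooled-list region. The sequence TGACTCA or TGAGTCA, searched on both strands (each is the reverse complement of the other), occurred 33 times in the 370 kb of Cpr windows, or 8.91 times per 100 kb, against 8.32 per 100 kb of the arms. The windows of 26 Cpr genes held 1 or more. Of the 33 sites, 0 lay in a pooled-list region, against 16.7% of the 11142 sites on the arms, while pooled regions covered 7.12% of the Cpr windows and 8.89% of the arms. The IDR regions covered 0.333% of the windows and 1.09% of the arms, and held 2.96% of all sites. The closest site was 168 bp from a pooled summit, that of the Pen peak near Cpr31A. It lay within the wider regions of that peak in replicate 1 (118) and replicate 3 (80.4). A site at Cpr78Cc lay in a region of replicate 1 alone (11.3).

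The following sites are printed to show perfect AP-1 sequences at Cpr genes, on the forward strand of dm6 with 12 bases on each side and the site in capitals. The first is the one in the Pen intron. The sites at Cpr62Bc, Cpr64Aa, Cpr97Eb and Cpr100A are in introns of these genes, the one at Cpr64Aa also within an intron of CG43367, and that at Cpr65Ec is 786 bp upstream of its TSS, and none of these 5 lay in a region of any list.
Cpr31A window: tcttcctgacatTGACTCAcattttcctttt
Cpr62Bc: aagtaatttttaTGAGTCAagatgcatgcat
Cpr64Aa: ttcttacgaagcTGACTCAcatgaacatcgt
Cpr65Ec: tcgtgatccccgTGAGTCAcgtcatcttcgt
Cpr97Eb: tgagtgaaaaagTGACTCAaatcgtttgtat
Cpr100A: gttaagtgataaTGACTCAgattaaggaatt
In the order given, the sites start at chr2L 10057600, chr3L 1841528, chr3L 4208884, chr3L 7092415, chr3R 27090642 and chr3R 30867839.

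Summits within Cpr windows lacked the AP-1 site and the DRE. Within 50 bp of the summit, 0 of 64 regions held the AP-1 site, against 2.10% of all pooled regions and 4.08% of IDR peaks. None held the DRE, against 1.10% and 3.23%. Both motifs are rare even among IDR peaks, and 64 regions are few for such shares. GAGAG, or CTCTC on the other strand, the core of GAGA factor sites, lay at 7 of 64 (10.9%), against 12.8% of pooled regions and 15.5% of IDR peaks.

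The promoters of the family had another make-up than those of other genes. In the 250 bases before and 50 after the 5′ end of the gene model, the DRE was found in 1 of 70 Cpr genes (1.43%, Cpr49Af), against 9.40% of other genes and 8.56% after weighting for length. The AP-1 site was found in 2 of 70 (2.86%, Cpr47Ec and Cpr49Ac), against 2.49% of other genes and 2.52% after weighting. GAGAG or CTCTC was found in 32.9%, against 29.7% of other genes and 25.8% after weighting. TATAAA, the letters of the TATA box, lay between 45 and 20 bases upstream in 36 of 70 Cpr genes (51.4%), against 7.86% of other genes and 11.3% after weighting. Between 60 and 1 bases upstream it lay in 62.9% of Cpr genes, against 11.6% of other genes and 16.1% after weighting. Among genes outside the family with TATAAA at 45 to 20 bases, 13.6% had an IDR summit in the body or within 2 kb, against 31.9% of those without it. Of the 36 Cpr genes with it, 2 had one, Cpr31A and Cpr66Cb. Weighted to the lengths of these 36 genes, the share of other genes with TATAAA was 13.1%. Weighted to the lengths of the Cpr genes without it, the share of other genes without it was 26.7%. Cpr49Ac was the only Cpr gene without it that had an IDR summit. The part of promoter type in the low share of Cpr genes was not tested.

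The promoters below are of Cpr genes on 3L and X, 60 bases upstream to 20 downstream of the 5′ end on the gene's own strand in dm6, with TATAAA between 45 and 20 bases upstream in capitals. Cpr64Aa and Cpr5C had no region in any list, Cpr72Ea, Cpr12A and Cpr78Cc had weak ones (53.0, 30.2 and 33.3 in the pooled list), and Cpr64Ac is given as a promoter without TATAAA.
Cpr64Aa, chr3L:4209159-4209238, minus strand: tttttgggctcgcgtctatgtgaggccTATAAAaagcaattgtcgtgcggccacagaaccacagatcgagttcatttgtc
Cpr5C, chrX:5804617-5804696, plus strand: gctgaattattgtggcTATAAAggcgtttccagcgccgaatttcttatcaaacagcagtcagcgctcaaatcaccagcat
Cpr72Ea, chr3L:16362543-16362622, plus strand: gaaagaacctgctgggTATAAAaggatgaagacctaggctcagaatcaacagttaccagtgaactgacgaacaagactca
Cpr12A, chrX:13543583-13543662, plus strand: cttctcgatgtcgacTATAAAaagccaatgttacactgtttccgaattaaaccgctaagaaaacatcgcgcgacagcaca
Cpr78Cc, chr3L:21300520-21300599, plus strand: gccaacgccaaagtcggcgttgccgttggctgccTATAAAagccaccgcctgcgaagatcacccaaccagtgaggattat
Cpr64Ac, chr3L:4212896-4212975, minus strand: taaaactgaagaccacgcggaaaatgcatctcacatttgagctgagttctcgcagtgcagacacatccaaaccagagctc

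Other structural cuticle genes had few IDR summits as well. Of 30 further genes of the R&R family under other symbols, such as the Lcp and Ccp84A genes, 2 had a summit in the body or within 2 kb (6.67%), against 18.7% of other genes weighted to their lengths. These were Pcp, the pupal cuticle protein gene (signal 102, with 54.5 in replicate 1 and 58.6 in replicate 3), and resilin, the gene of an elastic cuticle protein (107, with 63.2 and 42.8 in replicates 1 and 3). The nearest TSS of these summits was again that of another gene, Gart for Pcp, 291 bp upstream of it, and RalGPS for resilin. None of 25 Tweedle genes, another cuticle protein family, had an IDR summit, against 23.4%, and 3 had a pooled region (12%). None of 10 peritrophin-like genes of chitin-binding proteins had an IDR summit, against 28.7%, and 8 had a pooled region (80%). Pooled regions lay at 63.3% of all genes outside the Cpr family, a share not weighted to the lengths of these lists.

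Chitin and tanning genes also had IDR summits at a lower share than other genes of like length. In chitin synthesis and remodelling, 4 of 24 genes had an IDR summit (16.7%), against 38.3% of other genes of like length. They were Gfat2, of the hexosamine pathway (95.8), mmy, which makes the activated sugar for chitin (88.4), the chitinase gene Cht7 (85.9) and the chitin deacetylase gene Cda5 (84.5). The strongest Cht7 summit lay in regions of 65.9 in replicate 1 and 16.2 in replicate 3. For Gfat2, mmy and Cda5 the replicate signals ran from 35.4 to 58.2. The strongest summit of mmy was in its own coding sequence, 256 bp from its TSS. Those of the other 3 had the TSS of another gene nearest: larp for Gfat2, at 244 bp, dbr for Cda5, at 116 bp, and PAN3 for Cht7, at 8937 bp. Of 9 tanning genes, such as ple and Ddc, which make catecholamines for hardening, none had one, against 40.0%. Transcription factor genes of the epidermis had more, with a summit at 6 of 7 (85.7%), against 48.8% of other genes of like length. They were grh, a regulator of the epidermal barrier (213), ovo, of epidermal hairs (148), Blimp-1 (138), Hr39 (134), ftz-f1, of the ecdysone response (109), and Hr38 (76.3). The strongest summits of grh, Blimp-1, Hr39 and ftz-f1 were in their own introns, and that of ovo lay 1494 bp upstream of an ovo TSS. That of Hr38 was nearest the TSS of Cen, at 166 bp, and that of Hr39 was nearest the TSS of another gene too. Like the other lists, these 7 genes were chosen with earlier results of these data known. They are few and long, with a median of 22657 bp.

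Families of similar gene length gave other shares. Among 35 glutathione transferase genes, short and clustered like Cpr genes, with a median length of 1059 bp, 12 had an IDR summit (34.3%), against 23.6% of other genes after weighting. Among 87 cytoplasmic ribosomal protein genes (median 1333 bp), 62 had one (71.3%), against 23.6%. The lists are shown side by side and no test was made between them.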

How the data were processed

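Jra ChIP-seq peak lists of genome build dm6 were used. The authors deposited a list for each of 2 replicates, a pooled list and an IDR list, and the text files deposited with them give the lists as derived from the alignments of each or both replicates and 1 further file. The replicate and pooled lists hold peaks and background, as the input for IDR. The signal of a region is a value from the authors' peak caller, and scales differ from list to list. For the aligner, caller and IDR threshold, names and values were not given in the sources used here. Read depth is unknown. The 3803 nuclear IDR peaks are also the 3803 strongest of the pooled list.

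Summits were set against protein-coding genes of the Ensembl annotation, which uses dm6 coordinates. No region ran past the end of its arm in the Release 6 sequence, from RefSeq, from which all sequences were read. A gene counted as holding a summit that lay in its body or within 2 kb. Shares of other genes were weighted to the lengths of the listed genes in 10 bins of equal size. Named genes are all Cpr genes with an IDR summit, the next 5 by pooled signal and up to 4 genes of each other list; the other 2 epidermal regulators, the glutathione transferase and ribosomal protein genes, the weighting on neighbouring TSSs, the genes of Cpr runs, those singled out for regions, motifs or sequences and the TATAAA search were added after values were seen. The members and lists were chosen with earlier results of these data known. With 1 group of 2 replicates no test was made, and the R&R motif in the proteins was not analysed here. The symbols tyl and AANAT1, and any starting with Cpap, matched no gene. The overlap and weighting steps were tested on simulated data. Python 3.11, numpy 2.4.6, pandas 2.3.3 and scipy 1.17.1 were used. Alternatives were other windows, the stronger peaks, each replicate alone, nearest-TSS assignment and other weightings.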

Additional observations from a re-analysis of the deposited data

How the results depend on the processing

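The share of Cpr genes with an IDR summit was 4.29% and stayed below that of genes of like length in the 7 alternatives run. It was 0% in the gene body (5.19% of other genes), 1.43% within 1 kb (19.2%), 10% within 5 kb (35.5%), 1.43% with the stronger 1901 peaks (15.3%) and 0% with nearest-TSS assignment (11.7%, chosen after seeing the data for other genes). For a single replicate, its 3803 strongest regions took the place of the IDR list, with no IDR cut. Leaving out replicate 3 or replicate 1 in this way gave 4.29% and 2.86% of Cpr genes, against 24.7% and 24.0%. Weightings on neighbours were chosen after seeing the data. Adding the presence of any other TSS in the window gave 23.6% for other genes, against 24.1% with length alone. Counting only TSSs outside the Cpr family gave 18.4%, but this leaves out family neighbours for Cpr genes and not for genes of other families. With 20 length bins it was 24.1%, and with genes within 10% in length 24.2%. Among the 3803 strongest regions of a single replicate, the share within 1000 bp of a Cpr TSS was 0% to 1.43%. In the whole list of a single replicate, the share with a region of any rank was 52.9% to 62.9%. With genes that had no region set at 0, the median pooled signal was 19.8 against 28.3 without them. Smaller windows, fewer peaks and a single gene per summit leave fewer genes with one by construction; other causes were not tested. Depth is unknown, so a peak missing from a list is not shown to be absent.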
